A study of Drosophila melanogaster with 6 samples.

Results

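The genes of the fourth chromosome of Drosophila melanogaster were examined in RNA-seq data from S2 cells. They were chosen by position and a level limit. Transcript values were summed per gene. Genes that the deposited table places on chromosome 4 were kept where their mean over the 6 libraries reached 1 FPKM. FPKM is a fragment count corrected for transcript length and for how many fragments of the library were mapped. This gave 54 of 83 chromosome 4 genes, out of 7308 genes above the same limit in the whole table. The study asked how gene expression and splicing depend on the PARP1 protein and on its activity, the attachment of poly(ADP-ribose) chains to proteins (PARylation). S2-DRSC cells, a line from late embryos used at passages 10 to 15, were given PARP1 double-stranded RNA (PARP1 KD, amounts of 100 and 500), or PJ34, an inhibitor of PARylation (doses of 10 and 0.3 µM), or were left untreated (control). The amounts of double-stranded RNA are given in ng in one label and in µg in another. Each group had 2 libraries, which the study calls biological replicates. The table's columns do not say which treated library had which dose, so the libraries are numbered as in the table. Because the controls received no double-stranded RNA, an effect of that RNA cannot be told apart from an effect of less PARP1.

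The fourth is the smallest chromosome of this fly. Much of it is packed like heterochromatin, with HP1a and methylated histone H3 along its length, yet many of its genes are transcribed. The protein Pof, named for its painting of the fourth, binds its active genes, and the histone methyltransferase encoded by egg acts on it.

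The libraries differed in ways that bear on every gene. The spacing of the lowest values gave relative depths of 0.884 to 1.11 times that of control library 1, or 20.6 to 27.1 fragments for each FPKM in a transcript of 1 kb. Fragment totals were not in the table. Parp1 had 16.7 and 10.2 FPKM under PARP1 KD, 39.3 and 50.2 FPKM under PJ34 and 51.6 and 29.9 FPKM in the controls, so both knockdown libraries lay below both controls (log2 difference -1.51, standard error 0.55, adjusted p 0.9996 by limma). The median log2(FPKM + 1) of the 7175 genes on the arms 2L, 2R, 3L, 3R and X was 2.42 in PJ34 library 2. It was between 3.74 and 4.51 in the other 5 libraries, so PJ34 library 2 stood apart. The 2 PJ34 libraries had different doses, so dose cannot be told apart from other differences between them. Summed FPKM of 6 hemocyte markers, which fit the origin of the line, was 1108 to 1255 under PARP1 KD, 61.3 to 649 under PJ34, and 1151 to 1286 in the controls. Of these, Pxn had 4.09 FPKM in control library 1 and 102 FPKM in control library 2. Of 10 markers of neurons, muscle, fat body, germ line and eye, summed FPKM was at most 4.33 in any library, most of it from elav, while Mhc, Lsp2 and ninaE were at or near 0. In bulk RNA, fewer cells of a type and less RNA per cell cannot be told apart.

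The 54 genes covered a wide range of levels. RpS3A, which encodes a protein of the small ribosomal subunit, had the highest mean at 1940 FPKM. ATPsynbeta, a subunit of the mitochondrial ATP synthase, followed with 280.4 FPKM and the small GTPase gene Arf4 with 269 FPKM. These were the 3 genes above 100 FPKM, and Mpv17 and the adaptor protein gene Crk came next with 91.5 and 70.9 FPKM. At the lower limit, CG11155 had a mean of 1.03 FPKM and was kept, whereas CG32017 had 0.919 FPKM and was not. The 29 genes left out included 3 listed at 0 in every library and 18 with a mean under 0.1 FPKM. Among them were developmental regulators, such as the eye selector genes ey (0.122 FPKM) and toy (0.0394 FPKM) and the hedgehog pathway transcription factor gene ci (0.260 FPKM).

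Chromosome 4 genes were built differently from those of the other arms. Their median span was 8003 bases, against 2481 bases for the other arms, and their median transcript length was 3345 bases, against 1865 bases. The median number of annotated transcripts was 3, against 1 on the other arms, and 36 of 54 genes had more than 1. Median levels were similar, with a mean FPKM of 18.2 for the fourth chromosome and 14.6 for the other arms. The spans of PIP4K and Mitf, introns included, overlap that of another gene in the table, so their values are less certain. Ank was listed at 0 in 1 library, where the estimate may be missing.

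**Figure D1:**
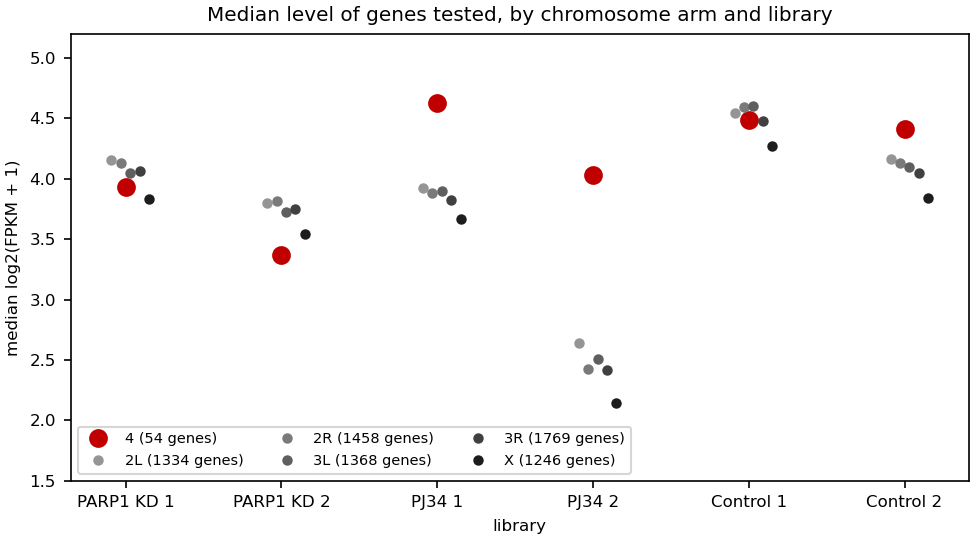
Median log2(FPKM + 1) of the genes tested, by chromosome arm, in each of the 6 libraries. The fourth chromosome median (54 genes) lay above all other arms in both PJ34 libraries (4.62 and 4.04), while in PARP1 KD library 2 it lay below all of them (3.37).

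The place of the fourth chromosome among the arms differed from group to group. Relative to the median of the other arms, the median log2(FPKM + 1) of its 54 genes was -0.12 and -0.37 under PARP1 KD, 0.78 and 1.61 under PJ34, and -0.02 and 0.35 in the controls. The knockdown libraries thus had the lowest values and the PJ34 libraries the highest. Without RpS3A, whose transcripts made up much of the sum, chromosome 4 genes took 0.129% and 0.0951% of all FPKM under PARP1 KD, 0.292% and 0.258% under PJ34, and 0.277% and 0.207% in the controls. The knockdown shares were below those of both other groups, whereas those of PJ34 and control overlapped.

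Knockdown was compared with control to ask how the genes responded to less PARP1. Chromosome 4 genes were lower under PARP1 KD, with a median log2(FPKM + 1) difference of -0.99 (quartiles -1.34 and -0.49), against -0.28 for the other arms. The medians of the 5 other arms lay between -0.31 and -0.26. The difference was below 0 for 51 of 54 genes (94.4%), against 71.9% of genes on the other arms. In 45 of 54 genes (83.3%) both knockdown libraries lay below both controls, against 34.9% of all genes tested. In 0 of 54 both lay above, against 10.5% of all genes tested. The 45 include CG11155, which met the level limit only through the controls (mean 1.90 FPKM, against 0.276 FPKM under PARP1 KD). Its difference follows in part from that limit.

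No single gene of the fourth chromosome passed the test. With limma on log2(FPKM + 1), 0 of 54 had an adjusted p under 0.05, as did 0% of all genes tested, and 14 reached 0.05 without adjustment. All 14 were lower under PARP1 KD (25.9%, against 2.22% of genes on the other arms). The downward shift was present in each pairing of libraries. The fourth chromosome median minus that of the other arms was -0.50 and -0.80 for PARP1 KD library 1 against control libraries 1 and 2, and -0.56 and -0.86 for PARP1 KD library 2. From 46 to 54 of the 54 genes were lower in these pairings. Below the median difference of the other arms were 37 (PARP1 KD library 1) and 38 (library 2) against control library 1. Against control library 2 it was 51 and 49. Without PJ34 library 1, which takes part only in the estimate of the spread, 3 genes passed (5.56% of the 54, against 0.588% of all genes tested). Without PJ34 library 2 it was 2 (0.315% of all genes) and without control library 2 it was 1 (0.985% of all genes). The shift as a whole was not tested, since 2 libraries against 2 cannot give an exact two-sided permutation p below 0.33.

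**Figure D2:**
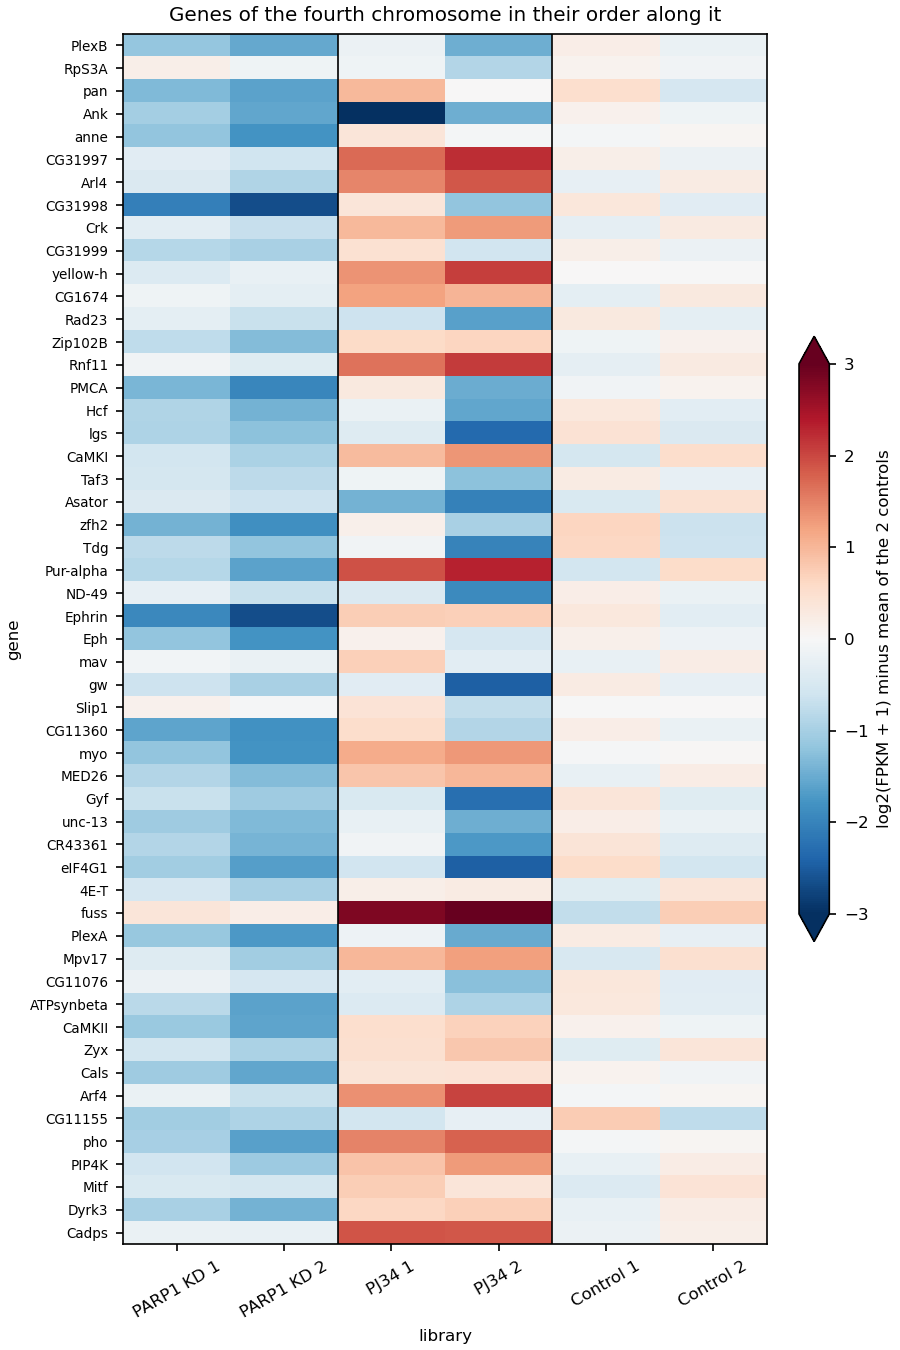
Log2(FPKM + 1) of 53 chromosome 4 genes in each library, minus the mean of the 2 controls of the same gene, in chromosomal order (blue, lower; red, higher; the colour scale ends at -3 and 3). The PARP1 KD columns are blue for nearly all genes, while the PJ34 columns hold red and blue genes side by side.

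The lowest values relative to control belonged to genes of several roles. CG31998 (chromosome 4, 218503 to 226552) had 2.12 and 1.07 FPKM under PARP1 KD, 15.8 and 4.74 FPKM under PJ34 and 15.4 and 9.33 FPKM in the controls. Its knockdown libraries lay below all 4 others, with a log2 difference from control of -2.36 (standard error 0.72, adjusted p 0.9996 by limma). Ephrin (CG1862, chromosome 4, 592382 to 598159), the membrane-bound ligand of the receptor Eph, had 3.16 and 1.51 FPKM under PARP1 KD, 25.5 and 25.3 FPKM under PJ34 and 18.9 and 11.8 FPKM in the controls. Here too the knockdown libraries were the lowest of the 6 (log2 difference -2.30, standard error 0.65). CG11360 had 2.02 and 1.53 FPKM under PARP1 KD, against 9.32 and 6.82 FPKM in the controls (-1.70 on the log2 scale). PMCA, which encodes the calcium pump of the plasma membrane, had 24.3 and 15.8 FPKM, against 60.1 and 68.7 FPKM (-1.66). The zinc finger homeodomain gene zfh2 had 7.30 and 5.18 FPKM, against 33.2 and 13.2 FPKM (-1.62). The controls of zfh2 were far apart. These genes were picked among those with both knockdown libraries below both controls, so that order was a condition of the choice.

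Lower values under PARP1 KD were seen in every role list. The counts of genes with both knockdown libraries below both controls are given by list, here and in the paragraphs on regulators and basic functions. Each stands beside 34.9% of all genes tested and 83.3% of the chromosome 4 genes. All 4 genes of axon guidance had both knockdown libraries below both controls. Besides Ephrin these were its receptor gene Eph (7.03 and 4.29 FPKM, against 19.3 and 15.5 FPKM in the controls) and the semaphorin receptor genes PlexA and PlexB, with log2 differences of -1.43 and -1.34. So did all 6 genes tested of 11 listed for synapse, channels and transporters. Among them, Cals (calsyntenin) had 18.2 and 12.6 FPKM, against 42.7 and 36.2 FPKM, and the kinase gene CaMKII had 16.2 and 11.5 FPKM, against 39.9 and 33.6 FPKM. The zinc transporter gene Zip102B had 26.3 and 17.7 FPKM, against 41.0 and 49.7 FPKM, and the vesicle priming gene unc-13 was lower in both libraries as well (-1.20 on the log2 scale). None of these genes passed the limma threshold. The median log2 difference of a list with at least 4 genes tested lay between -1.46 (axon guidance) and -0.59 (signalling), against -0.28 for all genes tested.

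Regulators of transcription were mostly lower than in the controls as well. Of 6 genes for chromatin and general transcription, 5 had both knockdown libraries below both controls. They included pho (CG17743, chromosome 4, 1193093 to 1202271), which encodes a DNA-binding protein of the Polycomb group, with 15.3 and 9.49 FPKM under PARP1 KD, against 30.3 and 32.7 FPKM in the controls. The Mediator subunit gene MED26 had 8.21 and 5.88 FPKM, against 13.6 and 18.8 FPKM, and the log2 differences of Hcf and Taf3 were -1.17 and -0.66. The exception was Asator, a kinase gene of the tau tubulin kinase family, with 21.8 and 18.9 FPKM under PARP1 KD and 21.5 and 40.7 FPKM in the controls. Of 14 transcription factor genes listed, 5 passed the level limit, and 4 of these lay below both controls. They were pan, the TCF factor of Wnt signalling (1.33 and 0.924 FPKM, against 7.27 and 3.16 FPKM), its co-activator gene lgs (-1.07 on the log2 scale), zfh2 and Mitf (-0.49). The fifth, fuss of the Ski/Sno family, had 2.38 and 2.004 FPKM and its controls 0.562 and 3.36 FPKM, so the groups overlapped.

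Genes of basic cell functions were also lower or overlapped. RpS3A, the most abundant, had 2397 and 1924 FPKM under PARP1 KD and 2266 and 1968 FPKM in the controls, a log2 difference of 0.02 (standard error 0.46), and its groups overlapped. The other 4 genes of translation and RNA regulation lay below both controls: the initiation factor gene eIF4G1 (-1.35 on the log2 scale), gw of microRNA silencing (-0.80), Gyf (-0.86) and 4E-T (-0.74). Both mitochondrial genes did so as well. ATPsynbeta had 226 and 131 FPKM, against 497 and 319 FPKM, and ND-49 of complex I had 55.3 and 41.3 FPKM, against 75.8 and 57.4 FPKM. Of the 8 signalling genes tested of 10 listed, 6 lay below both controls, among them Arf4, Arl4, Crk and PIP4K at -0.43, -0.66, -0.51 and -0.82 on the log2 scale. Zyx (zyxin), the DNA repair genes Rad23 and Tdg, and yellow-h each lay below both controls too (-0.74, -0.48, -0.99 and -0.32). The 9 genes whose groups overlapped were RpS3A, Asator, fuss, mav, Slip1, Mpv17, Rnf11, CG1674 and CG11076.

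PJ34 was compared with control to ask how the same genes responded to blocked PARylation. Here the fourth chromosome was split, while most other genes were lower. Its median log2(FPKM + 1) difference was 0.18 (quartiles -0.81 and 1.09), against -1.09 for the other arms, whose 5 medians lay between -1.12 and -0.99. The sign of the 0.18 was not stable: it was -0.17 when a mean FPKM of 5 was asked for and -0.16 without PJ34 library 1, and 0.99, 1.32 and 1.45 after quantile normalization, centring on the median and removal of the length trend. In 23 of 54 genes (42.6%) both PJ34 libraries lay above both controls, against 13.1% of all genes tested. In 10 of 54 (18.5%) both lay below, against 54.1% of all genes tested. The 23 include Cadps and yellow-h, which met the level limit only through PJ34.

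Single genes again did not pass. With limma, 0 of 54 had an adjusted p under 0.05 in this comparison, against 0.643% of all genes tested, while 16 reached 0.05 without adjustment, of which 14 were higher and 2 were lower under PJ34. These are 25.9% and 3.70% of the 54, against 5.84% and 25.3% of all genes tested. Without PJ34 library 1, 31 of 54 passed, but so did 69.9% of all genes tested. Of the 31, 15 were higher and 16 were lower under PJ34, against 7.72% of all genes higher and 62.2% lower. Without PJ34 library 2, 3 genes passed (3.23% of all genes), and without control library 2 it was 2 (4.99% of all genes). The distance from the other arms was seen with either PJ34 library. Relative to the other arms, the fourth chromosome median was 1.05 and 0.61 higher in PJ34 library 1 than in control libraries 1 and 2, and 1.61 and 1.37 higher in PJ34 library 2. In PJ34 library 1, 33 and 43 of the 54 genes were above control libraries 1 and 2, and in library 2 it was 25 in both cases. Above the median difference of the other arms were 45 and 49 for PJ34 library 1, and 46 and 47 for PJ34 library 2. Between the PJ34 libraries, 23 of 54 genes were higher in library 2 (42.6%), against 17.9% of genes on the other arms. Summed FPKM of the hemocyte markers was lower under PJ34, as given above. Of 5 markers tested, 4 had both PJ34 libraries below both controls, beside 54.1% of all genes tested. The exception was Pxn, with 4.97 FPKM in PJ34 library 1 and 4.09 FPKM in control library 1. In addition, 13 genes of the mitochondrial genome had a median log2 difference of 1.88. The part of these markers and mitochondrial genes in the result was not tested.

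The choice of scale mattered for these counts. The median of all genes tested was -0.28 for PARP1 KD and -1.08 for PJ34. It became 0.02 and -0.17 with quantile normalization, 0.11 and 0.06 with centring, and 0.02 and -0.05 with the length trend removed. On these scales, chosen for the counts after the data were seen, 37, 31 and 34 of 54 chromosome 4 genes still had both knockdown libraries below both controls, against 24.4%, 20.1% and 24.7% of all genes. For PJ34, 38, 42 and 39 of 54 had both libraries above both controls, against 23.5%, 28.4% and 27.6% of all genes. Relative to all genes, the fourth chromosome was therefore lower under PARP1 KD and higher under PJ34 on every scale used.

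The genes highest under PJ34 relative to control differed in role and level. The gene fuss (CG11093, chromosome 4, 982966 to 990000), a transcriptional regulator, had 17.2 and 32.3 FPKM under PJ34, against 0.562 and 3.36 FPKM in the controls, a log2 difference of 3.24 (standard error 0.70, adjusted p 0.0799 by limma). Pur-alpha (CG1507, chromosome 4, 578607 to 586562), whose product binds single-stranded nucleic acids, had 23.2 and 31.0 FPKM, against 3.38 and 8.53 FPKM (2.11, standard error 0.69). In both genes each PJ34 library was well above each control, although the controls themselves differed more than 2-fold. CG31997 had 8.11 and 11.9 FPKM, against 2.16 and 1.46 FPKM (1.96). Cadps, which acts in the release of dense-core vesicles, had 4.35 and 4.27 FPKM, against 0.279 and 0.628 FPKM (1.88, adjusted p 0.0728 by limma). Its mean was 0.454 FPKM in the controls and 0.244 FPKM under PARP1 KD, so it met the limit of 1 FPKM only through PJ34. Rnf11, a RING finger gene, had 51.5 and 71.7 FPKM, against 13.03 and 19.6 FPKM (1.86). All 5 genes were picked among those with both PJ34 libraries above both controls, so standing clear of the controls was a condition of the choice.

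The lowest under PJ34 were long genes. Ank, an ankyrin gene, had 0 and 12.9 FPKM under PJ34, against 41.0 and 34.7 FPKM in the controls, and its 0 may be a missing estimate, so no fold is given. Asator had 10.5 and 6.53 FPKM, against 21.5 and 40.7 FPKM (-1.72 on the log2 scale). The translation genes eIF4G1, gw and Gyf followed at -1.52, -1.40 and -1.35. Each of these 3 was far lower in PJ34 library 2 than in library 1, for example 37.1 and 9.50 FPKM for eIF4G1, against 83.3 and 37.8 FPKM in the controls. With the length trend removed, gw and Gyf had differences of 0.040 and 0.080, so their direction rests on the scale.

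The role lists differed in how many of their genes had both PJ34 libraries on one side of the controls, and none of these genes passed the limma threshold against control. Of all genes tested, 13.1% had both libraries above and 54.1% both below. Of 8 signalling genes, 5 had both PJ34 libraries above both controls. These were Arf4 with 411 and 651 FPKM, against 152 and 164 FPKM in the controls, its relative Arl4 with 121 and 158 FPKM, against 35.9 and 51.6 FPKM, and Crk, PIP4K and the kinase gene Dyrk3 (1.12, 1.06 and 0.67 on the log2 scale). Of 6 synapse, channel and transporter genes, 4 were above both controls (Zip102B, CaMKII, Cals and Cadps) and unc-13 was below both. Among 6 genes of chromatin and general transcription, pho, MED26 and Pur-alpha were above both controls and Asator was below. pho had 89.6 and 109 FPKM under PJ34, against 30.3 and 32.7 FPKM (1.62). Of the translation genes, 4 of 5 lay below both controls, as did both mitochondrial genes, a direction shared by 54.1% of all genes. RpS3A had 1935 and 1147 FPKM, against 2266 and 1968 FPKM, and ATPsynbeta 299.5 and 209 FPKM, against 497 and 319 FPKM. Of the 5 transcription factor genes only fuss was above both controls, and of 4 axon guidance genes only Ephrin. The median log2 difference was 0.86 for the signalling list, 0.50 for synapse, channels and transporters, 0.49 for transcription factors, 0.12 for chromatin and general transcription, -0.50 for axon guidance, -0.92 for the mitochondrial genes and -1.35 for translation, against -1.08 for all genes tested.

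Neighbours among the 54 genes often differed in direction under PJ34 on the deposited scale. Of 53 adjacent pairs, 26 had PJ34 differences of the same sign, in a set with 28 genes above 0 and 26 below. These signs rest on the scale: 44 genes were above 0 and 10 below with quantile normalization, and 47 and 7 with centring. With the length trend removed it was 46 and 8. Pairs were not counted on those scales. Under PARP1 KD, where 51 of 54 were below 0, it was 47 of 53 pairs. ND-49 lies between Pur-alpha and Ephrin, and its difference under PJ34 was -1.18, against 2.11 and 0.73 for its neighbours. Elsewhere neighbours went together, as at the end of the chromosome. There pho (1.62), PIP4K (1.06), Mitf (0.55), Dyrk3 (0.67) and Cadps (1.88) follow each other among the genes above the level limit.

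**Figure D3:**
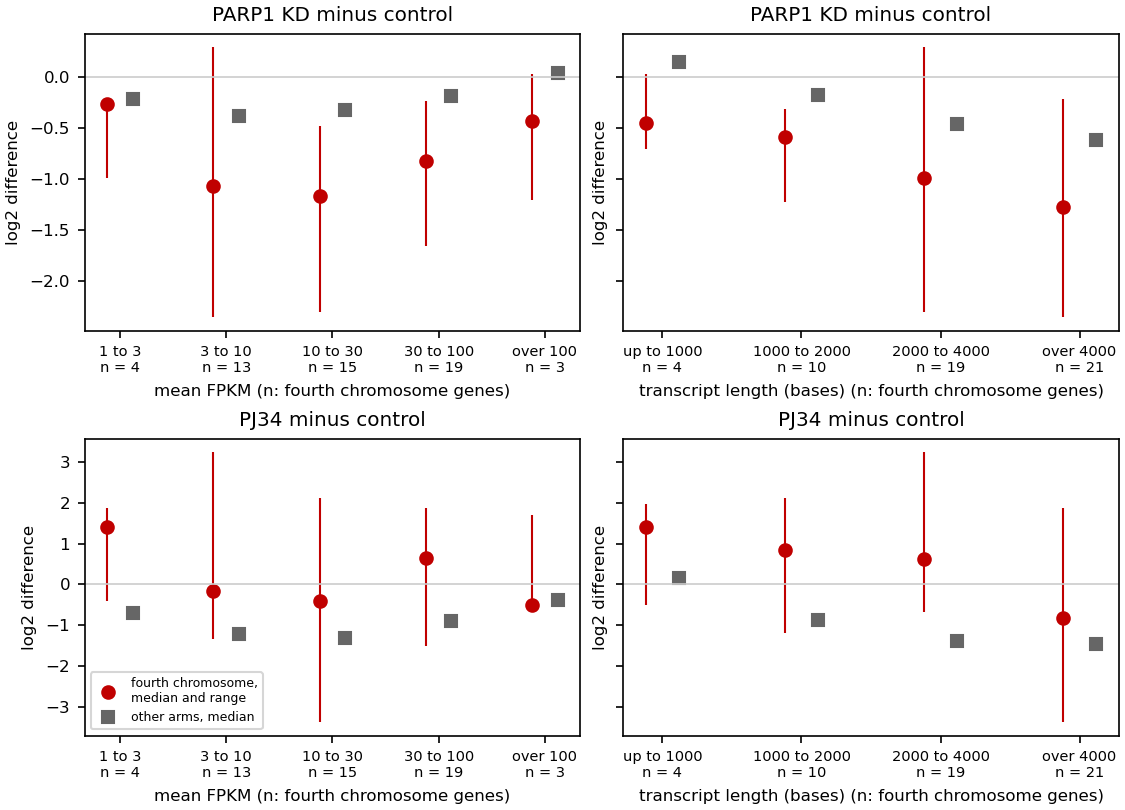
Log2(FPKM + 1) difference by class of mean FPKM (left) and of transcript length (right), for PARP1 KD minus control (top) and PJ34 minus control (bottom). Circles and lines give the median and range of chromosome 4 genes, squares the median of the other arms. Chromosome 4 medians lie below the squares in every class in the top panels and above them in every class in the bottom panels but 1, that of genes over 100 FPKM.

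The fourth chromosome was also set against genes of like level and length. Relative to genes of the other arms in the same class of mean FPKM, the median difference under PARP1 KD was -0.66, and 49 of 54 genes were lower. For the same class of level and of transcript length it was -0.52, with 46 of 54 lower. Under PJ34 the values were 1.23 (44 of 54 higher) and 1.43 (49 of 54 higher). Length itself moved with both differences. Across the 54 genes, which are not independent replicates, Spearman's rho of the log2 difference with transcript length was -0.49 under PARP1 KD and -0.51 under PJ34, against -0.52 in both comparisons on the other arms. The 23 genes above both controls under PJ34 had a median length of 2638 bases, against 4780 bases for the 10 genes below. In the 21 genes over 4000 bases, the median PJ34 difference was -0.82, against -1.45 for the other arms, and the median PARP1 KD difference was -1.28, against -0.62.

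Knockdown and PJ34 were compared with each other to ask whether less PARP1 and less PARylation differ in effect. The groups also differ in exposure to double-stranded RNA and to a drug, and these cannot be told apart from PARP1 and PARylation. In this comparison genes of the fourth chromosome passed the threshold, all of them lower under PARP1 KD. The median log2(FPKM + 1) difference was -1.31, against 0.69 for the other arms. Both knockdown libraries lay below both PJ34 libraries in 33 of 54 genes (61.1%), against 17.3% of all genes tested. The reverse was seen in 1 of 54, against 43.8% of all genes tested. With limma, 10 of 54 genes (18.5%) had an adjusted p under 0.05, against 2.57% of all genes tested. The 33 and the 10 include Cadps and yellow-h, which met the level limit only through PJ34.

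Regulators and secreted or surface proteins were among the 10 genes. The Polycomb group gene pho had 15.3 and 9.49 FPKM under PARP1 KD, against 89.6 and 109 FPKM under PJ34, a log2 difference of -2.93 (standard error 0.50, adjusted p 0.0230 by limma). Pur-alpha had 2.58 and 1.13 FPKM, against 23.2 and 31.0 FPKM under PJ34 (-3.34, standard error 0.69, adjusted p 0.0394 by limma). The values of the 2 treatments were several-fold apart in both genes. For Ephrin they were 3.16 and 1.51 FPKM under PARP1 KD, against 25.5 and 25.3 FPKM under PJ34 (-3.03, standard error 0.65, adjusted p 0.0413 by limma). The gene myo (CG1838, chromosome 4, 711889 to 716675), which encodes myoglianin, a ligand of the TGF-beta family, had 14.5 and 9.13 FPKM, against 75.4 and 85.5 FPKM (-2.70, standard error 0.50, adjusted p 0.0312 by limma). Its controls, at 33.4 and 35.4 FPKM, lay between the treatments.

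Small GTPases and a vesicle release gene were among the rest. Arf4 (CG11027, chromosome 4, 1144799 to 1145807) had 137 and 99.3 FPKM under PARP1 KD, against 411 and 651 FPKM under PJ34 (-2.14, standard error 0.43, adjusted p 0.0365 by limma). Arl4, another small GTPase gene, had 31.6 and 22.7 FPKM, against 121 and 158 FPKM (-2.32, adjusted p 0.0379 by limma). In both genes the treatments stood well apart, with the controls nearer to the knockdown libraries. Cadps had 0.255 and 0.233 FPKM, against 4.35 and 4.27 FPKM (-2.09, adjusted p 0.0312 by limma). The last were yellow-h of the yellow family and CG31997. The values of yellow-h were 0.372 and 0.557 FPKM, against 3.65 and 6.66 FPKM (-2.03). Those of CG31997 were 1.21 and 0.837 FPKM, against 8.11 and 11.9 FPKM (-2.43). Cadps and yellow-h met the level limit only through PJ34, the group where they were highest, so their difference follows in part from that limit. In each of these 9 genes both controls lay between the knockdown and the PJ34 libraries.

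**Figure D4:**
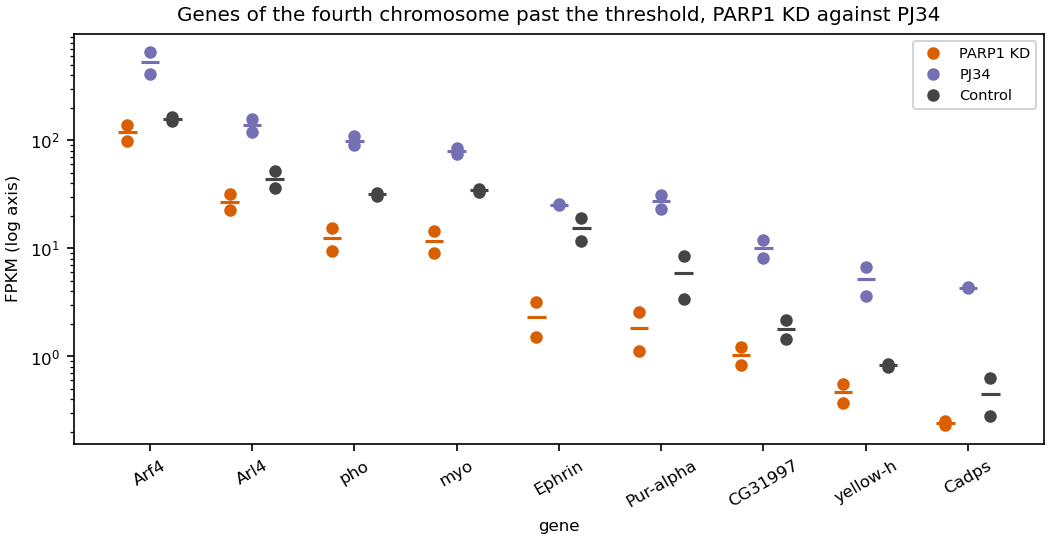
FPKM (log axis) of 9 chromosome 4 genes past the threshold between PARP1 KD and PJ34, with each library as a point and the group mean as a bar. In every gene the PARP1 KD points are lowest, the PJ34 points highest and the controls between them, as in pho with 15.3 and 9.49 FPKM under PARP1 KD, 89.6 and 109 FPKM under PJ34 and 30.3 and 32.7 FPKM in the controls.

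Genes that did not pass included some with large differences. The largest of these was that of fuss, with 2.38 and 2.004 FPKM under PARP1 KD, against 17.2 and 32.3 FPKM under PJ34 (-2.95, standard error 0.70, adjusted p 0.0574 by limma). Asator was the gene with both knockdown libraries above both PJ34 libraries (21.8 and 18.9 FPKM, against 10.5 and 6.53 FPKM, 1.19 on the log2 scale, adjusted p 0.246 by limma). The 10 genes kept their direction whichever library was left out. Passing the threshold needed both PARP1 KD libraries, for these 10 genes and for nearly all other genes. None passed when every gene above 0 was tested (0.0505% of all genes passed). With the length trend removed, 32 chromosome 4 genes passed, all lower under PARP1 KD, against 11.2% of all genes lower. Without PJ34 library 1 the count was 30 (5 higher and 25 lower under PARP1 KD), against 49.4% of all genes higher and 8.4% lower. Without PJ34 library 2 it was 23 (1 higher and 22 lower), against 2.33% of all genes higher and 3.69% lower. By role, 2 of 8 signalling genes tested passed (Arf4 and Arl4), and 2 of 6 for chromatin and general transcription (pho and Pur-alpha). It was 1 of 4 for axon guidance (Ephrin), 1 of 6 for synapse, channels and transporters (Cadps), and yellow-h as the 1 pigment gene tested. It was 0 of 5 for transcription factors, 0 of 5 for translation and 0 of 2 for mitochondrial energy. These stand beside 18.5% of the 54 genes, and lists this small do not rank the roles. Both myo and CG31997 were in no list.

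The transcripts behind these sums did not all move alike. Of 114 chromosome 4 transcripts from 53 genes, 12 from 10 genes passed the same limma threshold between PARP1 KD and PJ34, all lower under PARP1 KD (2.74% of all transcripts tested passed). Of the 10 genes, 5 had also passed as a whole. In pho, transcript RA had 1.18 and 0.658 FPKM under PARP1 KD, against 42.6 and 51.1 FPKM under PJ34 (adjusted p 0.0192 by limma), while RB had 14.2 and 8.83 FPKM, against 47.0 and 58.2 FPKM. The controls had 14.1 and 7.36 FPKM of RA and 16.2 and 25.3 FPKM of RB. RA was the lower of the pair in every library and furthest below RB under PARP1 KD.

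In myo, transcript RB had 0.0373 and 0.438 FPKM under PARP1 KD, 34.6 and 43.1 FPKM under PJ34 and 12.98 and 11.2 FPKM in the controls (PARP1 KD against PJ34, adjusted p 0.0159 by limma). Transcript RD of the same gene had 13.1 and 8.30 FPKM under PARP1 KD, 15.7 and 17.4 FPKM under PJ34 and 9.39 and 20.4 FPKM in the controls, and its groups overlapped. Zyx, which did not pass as a gene, held a similar pair. Its transcript RC was at most 0.000194 FPKM under PARP1 KD, against 16.1 and 19.4 FPKM under PJ34 and 8.84 and 9.69 FPKM in the controls, while RG had 12.1 and 10.8 FPKM, against 6.77 and 12.6 FPKM under PJ34 and 2.23 and 14.2 FPKM in the controls. Cals and MED26 each have a second transcript whose levels ran the other way, without passing the test. RB of Cals had 13.8 and 6.33 FPKM under PARP1 KD, at most 1.30 FPKM under PJ34 and 1.80 and 9.37 FPKM in the controls. RB of MED26 had 6.23 and 2.996 FPKM under PARP1 KD, at most 0.00978 FPKM under PJ34 and 0.568 and 9.57 FPKM in the controls. In both transcripts the controls were far apart and overlapped the knockdown values. Cufflinks shares fragments out among overlapping transcripts, so a value near 0 does not show that a transcript was absent.

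The number of transcripts per gene was lowest under PARP1 KD on the fourth chromosome. Of the 36 chromosome 4 genes with more than 1 transcript, a mean of 1.81 and 1.53 transcripts reached 1 FPKM under PARP1 KD, 2.75 and 2.44 under PJ34 and 2.56 and 2.39 in the controls. On the other arms the means were 1.81 and 1.71 under PARP1 KD, 1.82 and 1.22 under PJ34 and 1.98 and 1.87 in the controls. There too the knockdown libraries lay below both controls, but the lowest library was PJ34 library 2. The median share of a gene's FPKM in its most abundant transcript was 75.7% and 77.8% under PARP1 KD, 63.0% and 68.8% under PJ34, and 64.6% and 69.6% in the controls. The knockdown shares lay above those of all other libraries. On the other arms this share was 87.5% and 88.1% under PARP1 KD, 85.0% and 86.3% under PJ34, and 85.3% and 84.0% in the controls. These shares are descriptions without a test, and the part of the lower gene levels in them was not tested.

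**Figure D5:**
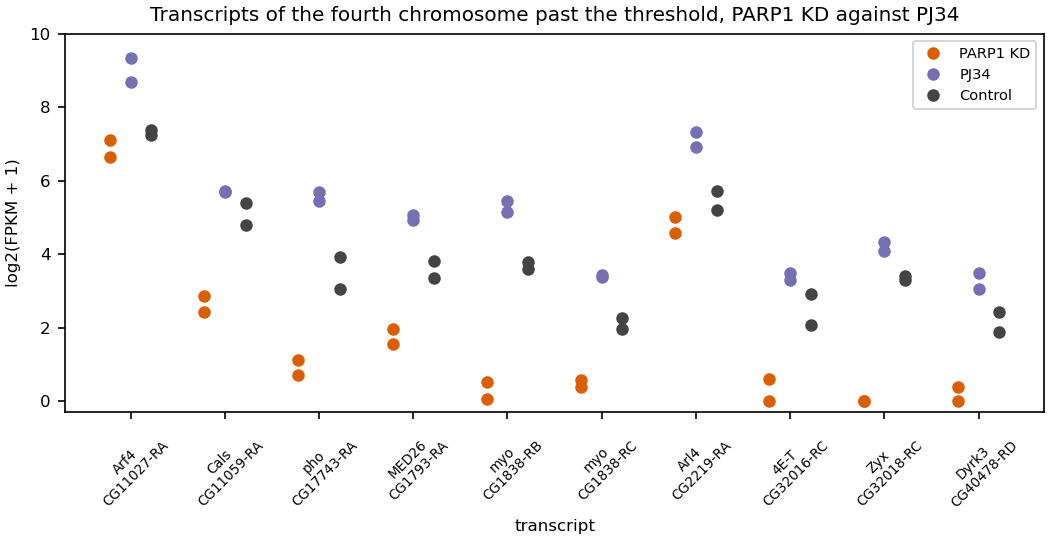
Log2(FPKM + 1) of 10 chromosome 4 transcripts past the threshold between PARP1 KD and PJ34, with each library as a point. The PARP1 KD points are lowest in every transcript, and in that of Zyx they lie next to 0.

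Genes that act on the fourth chromosome or on heterochromatin were examined as well. None of the 8 regulators found in the table passed in any comparison (limma). Pof had 12.2 and 10.6 FPKM under PARP1 KD, 7.69 and 3.499 FPKM under PJ34 and 10.1 and 13.7 FPKM in the controls. Its knockdown and control libraries overlapped, while both PJ34 libraries were lower. The gene for HP1a had 345 and 260 FPKM under PARP1 KD, 249 and 186 FPKM under PJ34 and 274 and 300.4 FPKM in the controls. For egg, the values were 10.7 and 9.07 FPKM under PARP1 KD, 8.83 and 0.958 FPKM under PJ34 and 20.4 and 8.20 FPKM in the controls. Over the 8 genes the median log2 difference from control was -0.26 under PARP1 KD and -1.42 under PJ34, beside -0.28 and -1.09 for the other arms.

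Genes placed on heterochromatic scaffolds had a median like that of the fourth chromosome under PJ34 and like that of the other arms under PARP1 KD. Their 45 genes had a median log2 difference from control of 0.29 under PJ34, against 0.18 for the fourth chromosome. Under PARP1 KD their median was -0.27, against -0.99 for the fourth chromosome and -0.28 for the other arms. Between PARP1 KD and PJ34 it was -0.78, with 17.8% of them past the threshold. Whether the 2 sets of genes differ was not tested.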

How the data were processed

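Per the labels and methods, the authors sequenced RNA of 6 S2 cell libraries as paired ends, aligned it to dm3 with TopHat2 2.0.10 and Bowtie2 2.1.0.0, and estimated transcripts with Cufflinks 2.1.1 and Cuffdiff; these versions are from the submitters' processing notes. The deposited values are FPKM per annotated transcript, computed by the authors from length and mapped fragments. FPKM can therefore shift for all genes when a few abundant transcripts grow, and the fragments behind a value are not in the table.

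Transcripts were summed per CG number (14012 genes from 21081 transcripts). The 7308 genes whose mean FPKM reached 1 were fitted on log2(FPKM + 1), which understates differences of low genes, in limma 3.58.1 (R 4.3.3) with 1 mean per group over all 6 libraries, an intensity trend and Benjamini-Hochberg adjustment. The p-values measure the spread between these libraries. The deposited table names the groups of the treated columns but not their doses, so the 2 columns of a treatment served as replicates. The spread within a treated group therefore includes any effect of dose. Coordinates are those of the table (dm3), and transcript lengths are medians from the Ensembl annotation of BDGP6. Strand is not in the table. Counts and medians over genes, step sizes and figures were made in Python 3.11.15 with pandas 2.3.3 and matplotlib 3.10.9. The fit was tested on simulated data.

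Genes were named by a rule: the 5 most abundant, those next to the level limit, 2 to 4 per role list, every gene past the threshold (1 of the 10 is not reported here by name), and per comparison the 5 highest and 5 lowest among genes whose groups did not overlap. The genes below the level limit, the neighbours and the transcripts were named after their values were seen, and the members, role lists and markers were chosen with earlier results of these data known. Alternatives were pseudocounts of 0.1 and 5, other level limits, quantile normalization, centring, removal of the length trend, only the 4 libraries compared, no intensity trend, transcripts in place of genes, an unadjusted p, each library left out, a block on the column number, and reference genes of like level or length.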

Additional observations from a re-analysis of the deposited data

How the results depend on the processing

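The distance of the chromosome 4 median from that of the other arms kept its direction under all 16 alternatives. Centring on the median cannot move this distance, because it shifts all genes of a library alike. Nor can leaving out a library of the group not compared. The distance lay between -0.83 and -0.51 for knockdown and control, and between 0.33 and 1.56 for PJ34 and control. For knockdown and PJ34 it lay between -2.30 and -0.57. The pooled SD between the 2 libraries of a group was 0.39. In the treated groups these libraries also differed in dose. The smallest distances in the 2 comparisons with PJ34 came from testing every gene above 0 (0.33 and -0.57), and a pseudocount of 5 gave 0.82 and -1.26. Leaving out 1 library, the PJ34 distance was 0.87 without PJ34 library 2 and 1.56 without PJ34 library 1.

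Counts of genes past the limma threshold depended on the setting. For PARP1 KD against control, 0 became 2 with only the 4 libraries compared (0.315% of all genes tested passed). At an unadjusted p of 0.05 it became 14 (2.86% of all genes). For PJ34 against control, 0 became 1 with a pseudocount of 5, 3 with quantile normalization, 5 with the length trend removed, 16 at an unadjusted p, and 0 to 31 when 1 library was left out (31 without PJ34 library 1). In this PJ34 comparison, 1.04%, 2.24% and 2.94% of all genes passed with the pseudocount of 5, quantile normalization and the length trend removed. Of all genes, 31.1% reached the unadjusted p, 5.84% higher and 25.3% lower, while the 16 were 14 higher and 2 lower. For PARP1 KD against PJ34, the count was 10 (2.57% of all genes). It became 2 with a pseudocount of 0.1 (0.944%), 0 with every gene above 0 (0.0505%) and 3 with no intensity trend (0.766%). With quantile normalization it was 27 (7.59%), with the length trend removed 32 (18.7%) and at an unadjusted p 27 (23.7%). Leaving out 1 library gave 0 to 30, with 0 without either PARP1 KD library, 30 without PJ34 library 1 and 23 without PJ34 library 2. The 10 genes kept their direction in every fit that included them. Where 1 library was left out, the lone library of its group was assumed to vary like the others. With the 3 scalings, 38, 42 and 39 genes had both PJ34 libraries above both controls, against 23 as deposited. The PJ34 differences of gw and Gyf turned to 0.040 and 0.080 with the length trend removed. The causes were not tested. The columns of each group are numbered 1 and 2, but nothing in the labels ties equal numbers, so they were not taken as pairs. The differences between columns 2 and 1 correlated across genes at 0.082 (PARP1 KD and control), 0.54 (PJ34 and control) and 0.088 (PARP1 KD and PJ34). What PJ34 and control columns of equal number share was not tested. With the column number as a replicate block, tried after the data were seen, 2, 12 and 27 chromosome 4 genes passed in the 3 comparisons. Of all genes tested, 0.917%, 43.2% and 23.7% passed. The smallest difference that passed with 2 libraries a group was -2.03 on the log2 scale (yellow-h).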
